A study of Mus musculus with 18 samples.

Results

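The genes described here encode 7 laminin chains and 3 partners that share their basement membranes in the dorsal root ganglion (DRG). They are *Lama1*, *Lama2*, *Lama4*, *Lama5*, *Lamb1*, *Lamb2*, *Lamc1*, *Nid1*, *Nid2* and *Hspg2*, 10 of the 36737 genes in the deposited table. They were chosen by name around *Lama5*, which was selected on its lower counts after fracture in these same mice. The differences of *Lama5* between groups are therefore given as a description with no test, and the other 9 genes were tested. All 10 passed the filter on low counts in every comparison, and the least abundant, *Lama1*, had between 122 and 494 counts per library.

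Bulk RNA-seq was performed on L3–L5 DRG of adult CD1 mice, an outbred strain with no engineered allele. Controls had a sham operation, and in the other 2 groups the tibia was fractured and the mice received either vehicle or PDX (protectin DX, a lipid mediator linked to the resolution of inflammation). There were 6 mice a group, of which 3 were male and 3 female, and every mouse gave its own poly(A)-selected library. Ganglia of both fracture groups were taken on day 3. The day for the sham group and the PDX dose of these mice were not given in the sources used here. The libraries held between 63235040 and 82824942 reads counted on genes. Where groups are compared, levels are given as CPM (edgeR), the read count relative to the TMM-scaled size of the library. Where genes are compared with each other, they are given as FPKM, the authors' value per length of transcript.

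Laminins are secreted trimers of an α, a β and a γ chain that polymerize on the cell surface and form the first layer of a basement membrane. Nidogens and perlecan (*Hspg2*) tie this layer to the type IV collagen network, and integrins and dystroglycan anchor it to the cell. In peripheral nerve and ganglia, Schwann cells, perineurial cells and capillaries each lie on such a membrane, and loss of the α2 chain causes a muscular dystrophy with peripheral neuropathy.

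The tissue label was checked against markers. All 9 neuronal markers examined had counts in every library, with a summed level between 10139 and 12423 CPM. Transcripts of trophoblast, a cell of the placenta, were present in all 18 libraries, those of male mice included, although 1 of the 8 markers had no counts in some libraries. Their summed level was 187.0 to 592.0 CPM in sham, 30.1 to 285.1 CPM in fracture and 28.8 to 146.4 CPM in fracture plus PDX mice, and all fracture libraries except female fracture mouse 3 lay below the lowest sham library. Female sham mouse 1 was low in Schwann cell transcripts, with 10813 CPM over 8 markers against 15634 to 24432 CPM in the other sham mice. Fits with the mean level of either list as a covariate were added after seeing the data. Trophoblast level and group largely coincided, so a fit with both leaves wide errors. A call lost in that fit does not tell the 2 apart. No 2 libraries of a group were copies, since the lowest chi-square of their counts was 20.8 per gene.

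Sequences upstream of the start are shown for *Lama5*, which varied little with the other members between mice, and for *Lamb1*, *Nid1* and *Hspg2*, which varied together. They come from RefSeq on GRCm38.p6, whose table held 6 of the 10 members and none for *Lama1*, *Lama4*, *Lamc1* and *Nid2*. Each run is written 5′ to 3′ on the strand of the gene, ends at the base before the annotated gene start, and carries in capitals the matches on either strand to the GC box (GGGCGG) and to the letters of the CCAAT box.
Lama5, chr2:180225860-180226109, minus strand: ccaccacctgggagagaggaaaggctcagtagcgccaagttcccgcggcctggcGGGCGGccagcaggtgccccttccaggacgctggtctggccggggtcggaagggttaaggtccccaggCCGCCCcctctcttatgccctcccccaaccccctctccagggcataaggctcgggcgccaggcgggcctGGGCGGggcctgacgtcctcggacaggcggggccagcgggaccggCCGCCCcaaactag
Lamb1, chr12:31265043-31265233, plus strand: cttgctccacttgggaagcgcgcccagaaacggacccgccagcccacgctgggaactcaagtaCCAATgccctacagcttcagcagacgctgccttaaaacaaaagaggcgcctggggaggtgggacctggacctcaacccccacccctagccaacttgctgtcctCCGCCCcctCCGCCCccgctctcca
Nid1, chr13:13437352-13437550, plus strand: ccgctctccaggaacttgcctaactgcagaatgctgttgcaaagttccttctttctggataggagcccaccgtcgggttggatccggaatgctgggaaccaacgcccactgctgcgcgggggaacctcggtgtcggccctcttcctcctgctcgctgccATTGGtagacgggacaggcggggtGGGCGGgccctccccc
Hspg2, chr4:137468553-137468768, plus strand: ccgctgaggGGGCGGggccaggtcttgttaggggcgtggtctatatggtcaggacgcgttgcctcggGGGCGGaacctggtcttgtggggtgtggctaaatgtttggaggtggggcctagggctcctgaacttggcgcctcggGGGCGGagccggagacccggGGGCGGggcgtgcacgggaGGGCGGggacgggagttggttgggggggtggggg

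The 4 runs were rich in G and C, at 72.4% for *Lama5*, 63.9% for *Lamb1*, 63.8% for *Nid1* and 70.8% for *Hspg2*. The median was 52.4% over 32851 RefSeq windows of 250 bases. These windows end at a RefSeq start, which can lie inside the annotated gene. The runs of *Lamb1* (191 bases), *Nid1* (199) and *Hspg2* (216) were cut shorter than the windows, so a match had less room in them. *Lama5* held 4 GC boxes and *Hspg2* held 5, and neither held a CCAAT box. *Lamb1* held 2 GC boxes and 1 CCAAT box, and *Nid1* held 1 of each. A GC box was present in 32.7% and a CCAAT box in 33.8% of all windows. None of the 4 runs held the TATA box (TATAAA), which 12.4% of all windows held. None held the E-box (CACGTG), present in 6.02%, or the cAMP response element (TGACGTCA), present in 1.55%. These are matches of letters and were not tested as binding sites.

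In sham ganglia the levels of the members spanned a wide range per length. *Nid1*, a nidogen that links laminin to collagen, led with 25.55 ± 3.24 FPKM (mean ± SD, n = 6). The β1 chain *Lamb1* followed with 16.65 ± 2.32 FPKM, perlecan *Hspg2* with 15.5 ± 1.60 FPKM, the γ1 chain *Lamc1* with 14.0 ± 1.501 FPKM and the β2 chain *Lamb2* with 13.9 ± 1.81 FPKM. The ranges of neighbours overlapped among these last 4 genes, and *Lamc1* was above *Lamb2* in 3 of 6 mice. The second nidogen, *Nid2*, stood apart at 7.97 ± 1.33 FPKM. The α chains were lower still, with *Lama4* at 4.54 ± 0.423 FPKM, *Lama2* at 3.85 ± 0.614 FPKM and *Lama5* at 3.16 ± 0.259 FPKM. *Lama4* was above *Lama2* in 6 of 6 mice and *Lama2* above *Lama5* in 5 of 6, although the ranges of both pairs overlapped. *Lama1*, the α1 chain best known from embryonic and epithelial basement membranes, was lowest at 0.438 ± 0.108 FPKM.

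**Figure D1:**
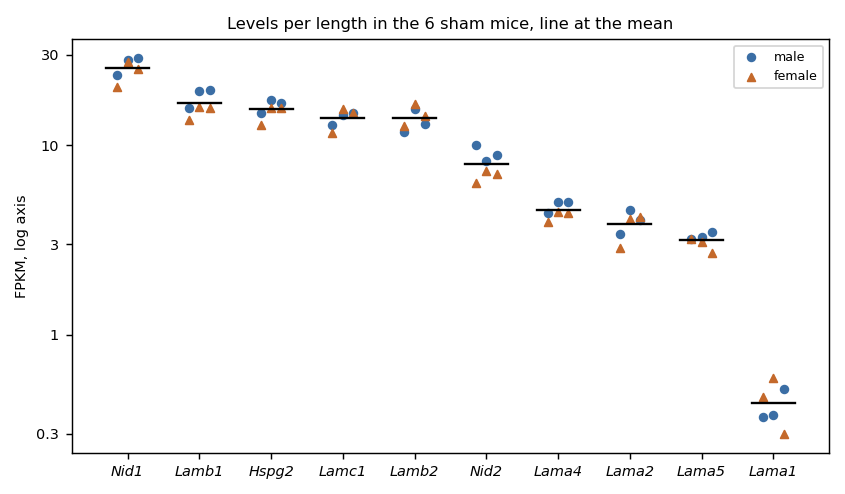
FPKM of the 10 genes in the 6 sham mice on a log axis, 1 point per mouse with a line at the mean, in the order of the mean. *Nid1* (20.27 to 28.75 FPKM) lies above and *Lama1* (0.30 to 0.59 FPKM) below all other genes.

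*Lama5*, on chromosome 2 at 180176373 to 180225859 of GRCm38 (minus strand, 79 exons), encodes the α5 chain of many adult basement membranes. Its level was 34.4 to 44.3 CPM in sham (median 39.75), 23.7 to 31.6 CPM in fracture (median 28.3) and 24.3 to 31.6 CPM in fracture plus PDX mice (median 27.2). Every sham library lay above every library of either fracture group. Of all genes tested, 1.53% showed such a lower range without overlap in fracture mice and 1.48% in fracture plus PDX mice. The log2 fold change against sham was -0.49 (SE 0.056) for fracture and -0.52 (SE 0.068) for fracture plus PDX, differences of -28.8% and -30.2%. In bulk tissue, fewer cells of a type and less RNA per cell cannot be told apart. Over the 19 alternatives planned for each comparison, the value stayed between -0.52 and -0.46 for fracture and between -0.57 and -0.49 for fracture plus PDX. With the mean trophoblast marker level as a covariate, it was -0.34 (SE 0.081) and -0.39 (SE 0.136).

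*Lama1*, on chromosome 17 at 67697259 to 67822647 (plus strand, 63 exons), fell in both comparisons with sham. Its level was 3.23 to 6.14 CPM in sham (median 4.50), 1.76 to 3.45 CPM in fracture (median 2.14) and 1.65 to 2.93 CPM in fracture plus PDX mice (median 2.24). The fracture group overlapped sham through female fracture mouse 3 alone, and the fracture plus PDX group did not overlap sham. Such a lower range was shown by 1.48% of all genes tested. The log2 fold change was -1.01 (SE 0.190, edgeR adjusted p = 0.0171) for fracture and -1.05 (SE 0.188, edgeR adjusted p = 0.00802) for fracture plus PDX. After fracture, *Lama1* was the 1 of 9 tested members called lower and none was called higher, where 1.83% of all genes were called lower and 1.09% higher. DESeq2 called *Lamb2* (DESeq2 adjusted p = 0.0164) and *Lamc1* (DESeq2 adjusted p = 0.0219) lower there too. Between mice of a group and sex, the level of *Lama1* had r = 0.65 with the trophoblast markers (18 libraries). Female fracture mouse 3 had the highest *Lama1* and the highest marker sum of its group, female sham mouse 2 the highest of both in sham, female sham mouse 3 the lowest of both in sham, and female fracture plus PDX mouse 1 the lowest of both in its group. In the fracture group the lowest *Lama1* was in male mouse 2 and the lowest marker sum in male mouse 3. In the fracture plus PDX group male mouse 2 had the highest *Lama1* (2.93 CPM) and male mouse 1 the highest marker sum (146.4 CPM). With the trophoblast covariate, the *Lama1* log2 fold change was -0.42 (SE 0.245, edgeR adjusted p = 0.794) for fracture and -0.25 (SE 0.30, edgeR adjusted p = 0.941) for fracture plus PDX. The part of trophoblast transcripts in the lower *Lama1* was not tested beyond this fit. With this covariate edgeR called 1 of 20659 genes after fracture, with 1375 at an unadjusted p under 0.05, and 0 of 20574 with fracture plus PDX, with 1133 at an unadjusted p under 0.05.

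**Figure D2:**
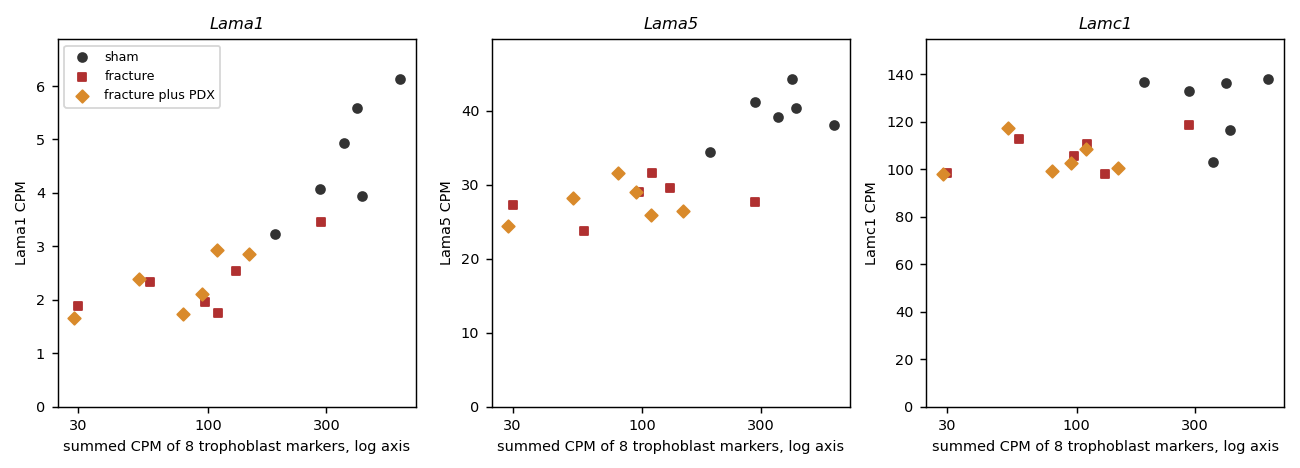
CPM of *Lama1*, *Lama5* and *Lamc1* against the summed CPM of 8 trophoblast markers (log axis), 1 point per library, with a symbol for each group. The fracture mouse at 285.1 CPM of markers has the highest *Lama1* of the fracture group (3.45 CPM), whereas its *Lama5* (27.6 CPM) lies within the range of the other fracture mice.

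*Lama2* (chromosome 10 at 26980036 to 27619758, minus strand) encodes the main α chain of the Schwann cell basement membrane. It was at 51.3 to 84.2 CPM in sham (median 73.8), 56.6 to 69.2 CPM in fracture (median 62.35) and 53.8 to 59.7 CPM in fracture plus PDX mice (median 55.5). All 12 fracture libraries lay below the sham median, and none lay below the lowest sham library, female sham mouse 1. Its log2 fold change was -0.18 (SE 0.106, edgeR adjusted p = 0.396) for fracture and -0.32 (SE 0.098, edgeR adjusted p = 0.0921) for fracture plus PDX, neither past the threshold. Without female sham mouse 1 the second was -0.40 (edgeR adjusted p = 0.00741). *Lama4* (chromosome 10 at 38965515 to 39110188, plus strand), the α chain characteristic of blood vessels, was at 51.4 to 67.6 CPM in sham (median 58.8), 52.05 to 59.6 CPM in fracture (median 57.5) and 52.8 to 60.9 CPM in fracture plus PDX mice (median 54.6). Both fracture groups lay within the sham range. Its log2 fold change was -0.09 (SE 0.064, edgeR adjusted p = 0.517) and -0.11 (SE 0.060, edgeR adjusted p = 0.359).

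Of the β chains, *Lamb2* (chromosome 9 at 108479736 to 108490530, plus strand), which is known from synaptic and vascular basement membranes, was at 78.4 to 108.5 CPM in sham (median 92.1), 70.3 to 88.1 CPM in fracture (median 74.0) and 66.45 to 97.1 CPM in fracture plus PDX mice (median 73.85). The groups overlapped, although 4 of 6 fracture and 5 of 6 fracture plus PDX libraries lay below the lowest sham library. Against sham, the log2 fold change was -0.27 (SE 0.078, edgeR adjusted p = 0.0872) and -0.28 (SE 0.095, edgeR adjusted p = 0.135). Without female fracture plus PDX mouse 3, the highest of its group, the second was -0.35 (edgeR adjusted p = 0.0345). *Lamb1* (chromosome 12 at 31265234 to 31329644, plus strand) was at 145.9 to 215.6 CPM in sham (median 173.7), 151.5 to 192.8 CPM in fracture (median 172.9) and 158.5 to 181.2 CPM in fracture plus PDX mice (median 169.9). Both fracture groups lay within the sham range. For *Lamb1* the log2 fold change was -0.08 in both comparisons (SE 0.097 and 0.070, edgeR adjusted p = 0.733 and 0.615).

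*Lamc1* (chromosome 1 at 153218922 to 153332786, minus strand) encodes the γ1 chain, which most laminins contain. It was at 103.1 to 138.2 CPM in sham (median 134.7), 97.9 to 118.6 CPM in fracture (median 108.3) and 98.2 to 117.4 CPM in fracture plus PDX mice (median 101.5). All 12 fracture libraries lay below the sham median, and 2 of 6 and 4 of 6 lay below the lowest sham library, female sham mouse 1. After fracture the log2 fold change was -0.25 (SE 0.075, edgeR adjusted p = 0.1), or -0.31 (edgeR adjusted p = 0.0182) without that mouse. For fracture plus PDX it was -0.29 (SE 0.074, edgeR adjusted p = 0.049), just past the threshold, and 9 of the 12 fits that left out a library did not pass it (adjusted p 0.0775 to 0.117). With the trophoblast covariate, under which 0 of 20574 genes were called, the log2 fold change was -0.29 and not called (edgeR adjusted p = 0.907). With *Lama1*, 2 of 9 tested members were thus called lower and none higher for fracture plus PDX, where 2.32% of all genes were called lower and 2.17% higher. DESeq2 called 5, with *Lama2* (DESeq2 adjusted p = 0.0119), *Lamb2* (DESeq2 adjusted p = 0.0302) and *Hspg2* besides.

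The proteins that link laminin to collagen did not pass the edgeR test in either comparison, and DESeq2 called *Hspg2* with fracture plus PDX (-0.23, DESeq2 adjusted p = 0.0143) and neither nidogen. *Nid1* (chromosome 13 at 13437551 to 13512269, plus strand) was at 151.8 to 221.9 CPM in sham (median 200.9), 157.6 to 188.6 CPM in fracture (median 170.9) and 156.1 to 197.5 CPM in fracture plus PDX mice (median 167.9). All 12 fracture libraries lay between the lowest and the median sham value, and the log2 fold change was -0.18 in both comparisons (SE 0.083 and 0.091, edgeR adjusted p = 0.271 and 0.322). *Hspg2* (chromosome 4 at 137468769 to 137570630, plus strand, 97 exons), which encodes the heparan sulfate proteoglycan perlecan, was at 202.9 to 283.5 CPM in sham (median 253.5), 186.7 to 243.2 CPM in fracture (median 218.0) and 205.3 to 229.3 CPM in fracture plus PDX mice (median 209.5). All 12 fracture libraries lay below the sham median and 1 of them below the lowest sham library. Its log2 fold change was -0.21 (SE 0.083, edgeR adjusted p = 0.202) and -0.225 (SE 0.064, edgeR adjusted p = 0.0726), the latter -0.28 (edgeR adjusted p = 0.01) without female sham mouse 1. *Nid2* (chromosome 14 at 19751265 to 19811787, plus strand) was at 35.4 to 57.0 CPM in sham (median 44.1), 37.3 to 51.3 CPM in fracture (median 45.4) and 37.6 to 48.7 CPM in fracture plus PDX mice (median 43.8). Both fracture groups lay within the sham range, with a log2 fold change of -0.01 (SE 0.109, edgeR adjusted p = 0.982) and -0.05 (SE 0.093, edgeR adjusted p = 0.854). *Nid2* shares 437 bases with *Rtraf* on the opposite strand, and the strand setting of the authors' counting was not given in the sources used here.

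**Figure D3:**
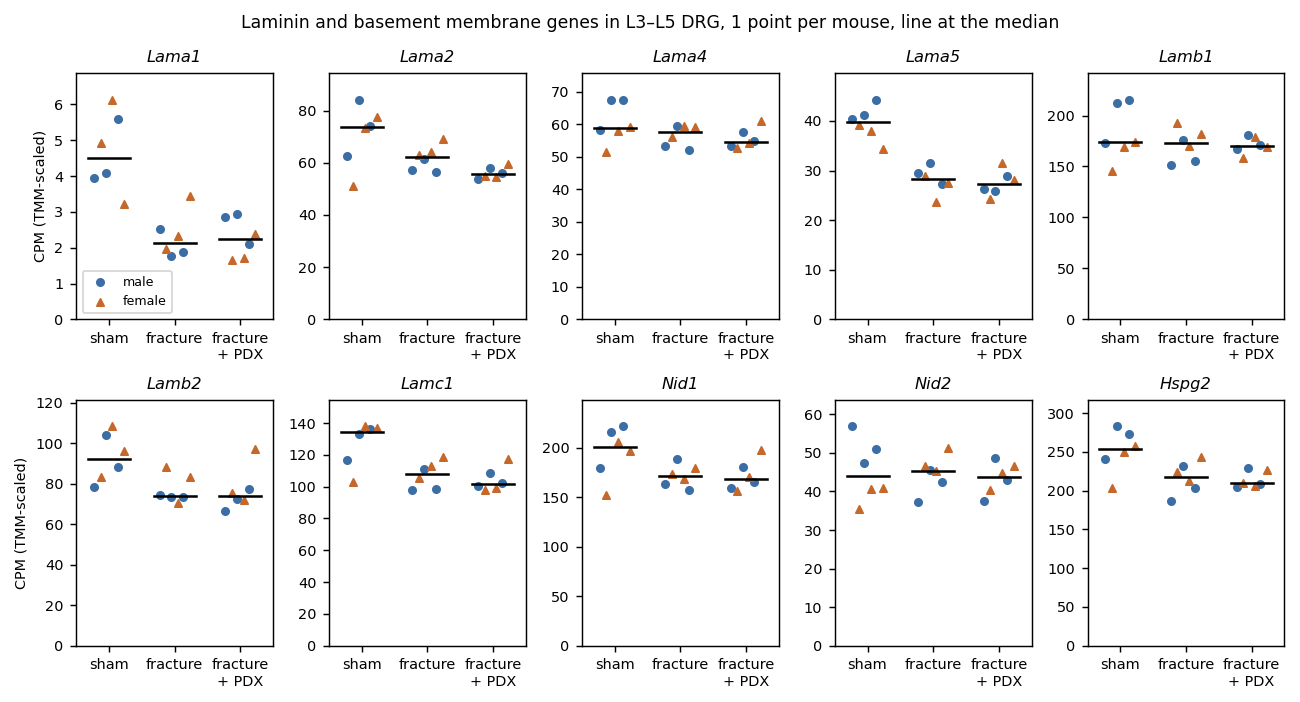
CPM of each gene in each of the 18 mice by group, with a symbol for each sex, a line at the group median and every axis starting at 0. In the *Lama5* panel the sham mice (34.4 to 44.3 CPM) lie above all fracture mice (23.7 to 31.6 CPM), whereas in the *Nid2* and *Lamb1* panels both fracture groups lie within the sham range.

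The fitted difference from sham was below 0 for 9 of the 9 members other than *Lama5* in both comparisons, where 49.3% and 50.4% of all genes tested were below 0. For *Nid2* the value lay near 0, and it turned above 0 in 5 of the 12 fits that left out a library after fracture and in 2 of 12 with fracture plus PDX. After fracture, *Nid2* was at 0.144 with the trophoblast and 0.044 with the Schwann cell covariate, and *Lamb1* at 0.008 and 0.007. The median log2 fold change of these 9 members was -0.18 for fracture and -0.225 for fracture plus PDX, against 0.002 and -0.001 over all genes. Both comparisons used the same sham mice, and the members varied together between mice, so these counts are not independent of each other.

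**Figure D4:**
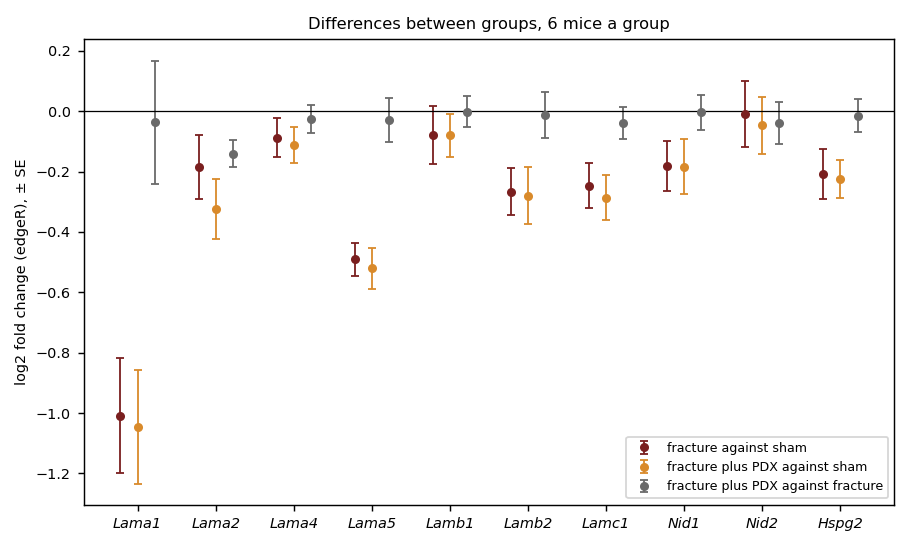
Fitted log2 fold change (edgeR) of each gene in 3 comparisons, with bars of 1 SE, 6 mice a group. Against sham, *Lama1* (-1.01 and -1.05) and *Lama5* (-0.49 and -0.52) lie lowest, and between the fracture groups the value furthest from 0 is that of *Lama2* (-0.14).

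PDX was compared with vehicle after fracture to ask whether the lipid mediator moved these genes at day 3. No member passed the test. edgeR called 0 of 20562 genes (0%), with 1113 at an unadjusted p under 0.05, and DESeq2 called 21 and limma on FPKM 0. *Lama2* had the largest difference, at -0.14 (SE 0.044, edgeR adjusted p = 0.825), and 4 of 6 PDX libraries lay below the lowest fracture library. The log2 fold change of the other members was between -0.04 and -0.001, with the widest SE for *Lama1* (0.205) and the narrowest for *Lama4* (0.046). For *Lama5* it was -0.03 (SE 0.072), and the ranges of both groups overlapped.

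Shares of the laminin transcripts were computed within each library from FPKM. *Lama4* made up 35.5% to 37.8% of the 5 α chains in sham, 39.3% to 42.45% in fracture and 40.6% to 42.8% in fracture plus PDX mice, and neither fracture group overlapped sham. *Lama2* made up a median of 31.4%, 32.25% and 30.6%, with overlapping ranges. *Lama5* made up 22.5% to 29.3% in sham, 17.97% to 23.2% in fracture and 20.3% to 25.05% in fracture plus PDX mice. A higher share of 1 chain follows where another is lower, so the shares include the choice of *Lama5* and were not tested. Among the γ chains, *Lamc1* made up a median of 88.0%, 87.8% and 88.15%. The ratio of *Lamb1* to *Lamb2* had medians of 1.18, 1.34 and 1.44, and that of *Nid1* to *Nid2* medians of 3.32, 2.77 and 2.87, with overlapping ranges.

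Laminin chains outside the set were low. *Lama3*, an α chain of epithelial laminin, reached at most 5.80 CPM, and *Lamb3*, a β chain of epithelial laminin, at most 1.57 CPM. *Lamc3*, a γ chain, was at 8.90 to 12.4 CPM in sham and 7.22 to 9.67 CPM in fracture plus PDX mice, and fell in that comparison with a log2 fold change of -0.35 (SE 0.094, edgeR adjusted p = 0.0489), where 2.32% of all genes were called lower. After fracture it was at 6.82 to 9.30 CPM, with a log2 fold change of -0.33 (SE 0.087, edgeR adjusted p = 0.0604). With the trophoblast covariate and fracture plus PDX, *Lamc3* was at -0.62 (SE 0.173, edgeR adjusted p = 0.854).

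Of 9 basement membrane collagens, edgeR called 0 in either comparison with sham, with 2 at an unadjusted p under 0.05 in each and 0 and 1 called by DESeq2. All 9 had a fitted value below 0 in both, with medians of -0.16 and -0.21. *Col4a1*, which forms the main type IV collagen with *Col4a2*, was at 209.9 to 366.0 CPM in sham, 206.8 to 255.1 CPM in fracture and 219.6 to 253.5 CPM in fracture plus PDX mice, and its lowest sham value was that of female sham mouse 1. Its log2 fold change was -0.38 (SE 0.133, edgeR adjusted p = 0.164) and -0.34 (SE 0.123, edgeR adjusted p = 0.174). With the Schwann cell covariate *Col4a1* was called lower in both comparisons, at -0.245 (SE 0.048, edgeR adjusted p = 0.025) and -0.18 (SE 0.041, edgeR adjusted p = 0.0285). That covariate left 551 of 20659 genes called after fracture and 763 of 20574 with fracture plus PDX. With the trophoblast covariate *Col4a1* was not called, at -0.36 (edgeR adjusted p = 0.817) and -0.51 (edgeR adjusted p = 0.907).

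Of 16 other basement membrane proteins, edgeR called 1 lower after fracture and 2 lower with fracture plus PDX, and 0 higher in either. In each comparison 5 of the 16 had an unadjusted p under 0.05, and DESeq2 called 4. Of all genes tested, 1.83% and 2.32% were called lower and 1.09% and 2.17% higher in these comparisons. *Tinagl1*, a matricellular protein, was at 32.4 to 38.5 CPM in sham, 20.9 to 29.1 CPM in fracture and 22.0 to 27.9 CPM in fracture plus PDX mice, without overlap between sham and either group. Of all genes tested, 1.53% and 1.48% showed such a lower range. The log2 fold change of *Tinagl1* was -0.46 (SE 0.076, edgeR adjusted p = 0.0112) and -0.55 (SE 0.068, edgeR adjusted p = 0.00145). *Npnt* (nephronectin), an integrin ligand, was at 3.99 to 4.76 CPM in sham and 2.44 to 4.14 CPM in fracture plus PDX mice, with a log2 fold change of -0.53 (SE 0.133, edgeR adjusted p = 0.0397). With the trophoblast covariate, which left 1 of 20659 and 0 of 20574 genes called, these 3 calls were lost. *Tinagl1* was then at -0.23 (SE 0.101, edgeR adjusted p = 0.745) and -0.33 (SE 0.12, edgeR adjusted p = 0.854), and *Npnt* at -0.705 (SE 0.268, edgeR adjusted p = 0.854). *Fbln2* (fibulin-2), an extracellular matrix protein, was at 0.16 after fracture (SE 0.041, edgeR adjusted p = 0.0515). With the Schwann cell covariate, under which 551 of 20659 genes were called, it was called higher, at 0.18 (SE 0.037, edgeR adjusted p = 0.0253). With the trophoblast covariate it was not called, at 0.22 (edgeR adjusted p = 0.689).

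Of 24 laminin receptors and linkers, edgeR called 2 higher and 0 lower after fracture, and 2 higher and 2 lower with fracture plus PDX, against 1.09% higher and 1.83% lower of all genes after fracture and 2.17% and 2.32% with fracture plus PDX. In each comparison 9 of the 24 had an unadjusted p under 0.05, and DESeq2 called 3 and 5. *Bcam*, a receptor that binds the α5 chain, was at 527.9 to 596.7 CPM in sham, 614.9 to 682.6 CPM in fracture and 655.5 to 734.6 CPM in fracture plus PDX mice. *Bcam* was thus higher in both fracture groups, opposite in direction to *Lama5*. The log2 fold change of *Bcam* was 0.22 (SE 0.036, edgeR adjusted p = 0.0112) and 0.28 (SE 0.038, edgeR adjusted p = 0.00216). *Itga7*, the α subunit of a laminin-binding integrin, rose in both comparisons, by 0.29 (SE 0.069, edgeR adjusted p = 0.0423) and 0.51 (SE 0.078, edgeR adjusted p = 0.00501) on the log2 scale. With fracture plus PDX, *Itga1*, a subunit of a collagen and laminin receptor, fell by 0.50 on the log2 scale (SE 0.115, edgeR adjusted p = 0.0268). *Utrn* (utrophin), which ties dystroglycan to the cytoskeleton, fell by 0.17 on the log2 scale (SE 0.043, edgeR adjusted p = 0.0426). Of 9 relatives with laminin or netrin domains, *Ntn1* (netrin-1, an axon guidance cue) fell by 0.34 on the log2 scale after fracture (SE 0.082, edgeR adjusted p = 0.0445). None of the calls in this paragraph passed with the trophoblast covariate, which left 1 of 20659 and 0 of 20574 genes called. After fracture, *Bcam* was then at 0.19 (edgeR adjusted p = 0.697), *Itga7* at 0.33 (edgeR adjusted p = 0.723) and *Ntn1* at -0.125 (edgeR adjusted p = 0.875). With fracture plus PDX, *Bcam* was at 0.25 (edgeR adjusted p = 0.854), *Itga7* at 0.32 (edgeR adjusted p = 0.907), *Itga1* at -0.51 (edgeR adjusted p = 0.907) and *Utrn* at -0.25 (edgeR adjusted p = 0.854). With the Schwann cell covariate edgeR called 551 of 20659 genes after fracture and 763 of 20574 with fracture plus PDX. *Tinagl1*, *Bcam* and *Itga7* then passed in both comparisons and *Itga1* with fracture plus PDX. *Ntn1* (edgeR adjusted p = 0.0595), *Lamc3* (edgeR adjusted p = 0.107), *Npnt* (edgeR adjusted p = 0.0795) and *Utrn* (edgeR adjusted p = 0.0752) did not pass. After fracture, *Itga1* (-0.31, edgeR adjusted p = 0.0872) and *Drp2*, a Schwann cell partner of dystroglycan (-0.43, edgeR adjusted p = 0.249), were called lower with this covariate, at -0.36 (edgeR adjusted p = 0.0291) and -0.255 (edgeR adjusted p = 0.0258). With the trophoblast covariate neither was called, at -0.33 (edgeR adjusted p = 0.75) and -0.57 (edgeR adjusted p = 0.788). Between the fracture groups edgeR called 0 genes of these 5 lists, with 0 at an unadjusted p under 0.05 and 0 by DESeq2.

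Between mice of the same group and sex, most members varied together. Deviations of log2 CPM from the mean of the 3 mice of a group and sex were correlated over the 18 libraries. Each r is a description, since the points share library, depth and tissue make-up. *Lamc1* and *Nid1* had r = 0.95, *Lama4* and *Nid1* 0.93, *Lama4* and *Lamc1* 0.92, and *Lamb1* and *Nid1* 0.81. *Lama5* stood apart, with r between -0.10 and 0.40 to the other members, as did *Lama1*, with r between -0.07 and 0.24. *Lamb1* followed the Schwann cell markers (r = 0.92), as did *Hspg2* (0.82) and *Lama2* (0.80), whereas *Lama5* did not (0.12). *Lamb2* and *Nid1* went with the fibroblast markers (0.84 and 0.80) and *Nid2* with the macrophage markers (0.80). *Lama1* (0.65) and *Lama5* (0.64) had their highest r with the trophoblast markers, to which the other 8 members had r between -0.03 and 0.25.

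**Figure D5:**
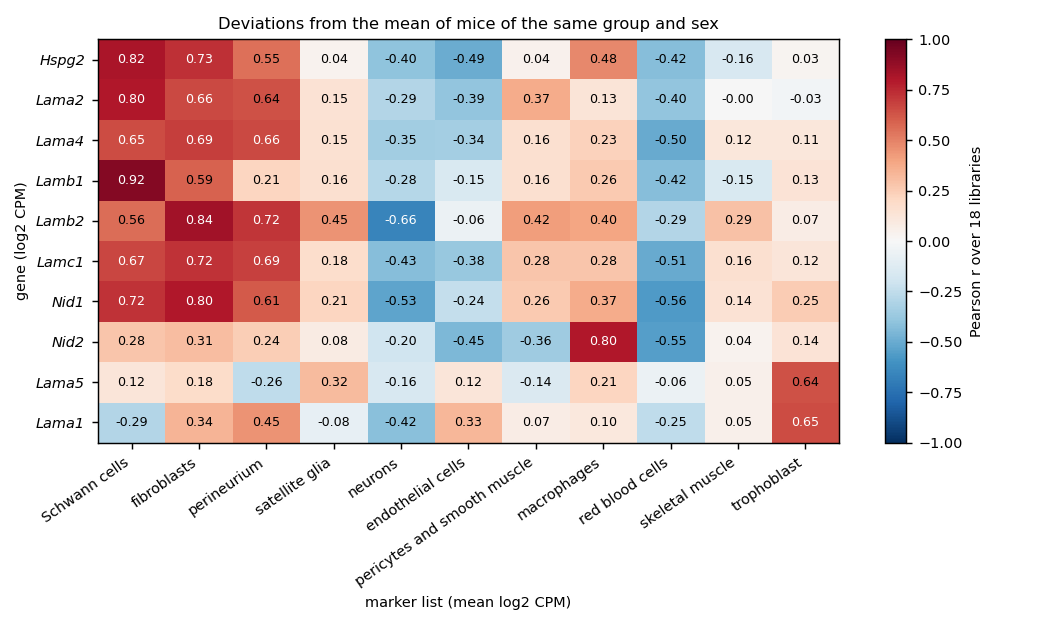
Pearson r over 18 libraries between the log2 CPM of each gene (rows) and the mean log2 CPM of each marker list (columns), both as deviations from the mean of mice of the same group and sex. The Schwann cell column reaches 0.92 for *Lamb1* and 0.12 for *Lama5*, and the trophoblast column is highest for *Lama1* (0.65) and *Lama5* (0.64).

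Markers of other cell types were compared between groups in the same fits. Of 8 Schwann cell markers, edgeR called 0 after fracture, with 1 at an unadjusted p under 0.05 and 0 by DESeq2, and 1 (*Sox10*) was called lower with fracture plus PDX, and the list's medians were -0.19 and -0.17. With the mean Schwann cell marker level as a covariate, *Lama5* was at -0.485 (SE 0.059) and -0.50 (SE 0.071). *Lama1* was then at -1.03 (edgeR adjusted p = 0.0252) and -1.11 (edgeR adjusted p = 0.00954), and *Lamb1* at 0.007 and 0.003. With this covariate edgeR called 551 of 20659 genes after fracture and 763 of 20574 for fracture plus PDX. *Lama2* (-0.205, edgeR adjusted p = 0.0437) and *Hspg2* (-0.15, edgeR adjusted p = 0.037) passed the threshold for fracture plus PDX, and *Lamc1* (-0.21, edgeR adjusted p = 0.0575) did not. Of the others, *Lama4* was at -0.035 and -0.05, *Lamb2* at -0.22 and -0.21, *Nid1* at -0.11 and -0.09, and *Nid2* at 0.044 and -0.008 on the log2 scale. After fracture *Lama2* was at -0.085, *Lamc1* at -0.185 and *Hspg2* at -0.136. With the trophoblast covariate, *Lama2* was at -0.145 and -0.47, *Lama4* at -0.03 and -0.19, *Lamb1* at 0.008 and -0.13, *Lamb2* at -0.21 and -0.34, *Lamc1* at -0.19 and -0.29, *Nid1* at -0.085 and -0.18, *Nid2* at 0.144 and -0.125, and *Hspg2* at -0.14 and -0.33, none past the threshold.

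Of 11 endothelial markers, whose sum was 210.1 to 261.1 CPM in sham, 190.1 to 214.3 CPM in fracture and 180.6 to 215.2 CPM in fracture plus PDX mice, 2 fell after fracture and 3 with fracture plus PDX, where 1.83% and 2.32% of all genes were called lower. The median log2 fold change of this list was -0.15 and -0.12. *Cdh5* (VE-cadherin) was at -0.735 (SE 0.117) and -0.74 (SE 0.099) and *Flt1*, a VEGF receptor, at -0.71 (SE 0.126) and -0.73 (SE 0.104) on the log2 scale. *Esam* was at -0.20 (SE 0.055, edgeR adjusted p = 0.0719) and -0.26 (SE 0.065, edgeR adjusted p = 0.0373), *Kdr* at -0.22 (SE 0.086) and -0.19 (SE 0.099), *Tek* at -0.24 (SE 0.114) and -0.12 (SE 0.095), and *Pecam1* at -0.07 (SE 0.088) and -0.24 (SE 0.081). *Tie1* was at -0.001 (SE 0.062) and 0.04 (SE 0.067), *Emcn* at 0.03 (SE 0.077) and 0.0 (SE 0.072), and *Cldn5* at 0.07 (SE 0.141) and -0.02 (SE 0.131). All 11 had counts in every library. Between mice, *Lama5* had r = 0.12 with the endothelial and -0.26 with the perineurial markers. Of 3 perineurial markers 2 and 1 fell, of 8 fibroblast markers 1 and 0, and of 8 macrophage markers 2 and 1, and of 9 neuronal markers 2 rose in each comparison, against the 1.83% and 2.32% of all genes called lower and the 1.09% and 2.17% called higher. Of 5 satellite glia markers, 1 (*Kcnj10*, 0.27, edgeR adjusted p = 0.0493) rose with fracture plus PDX. After fracture edgeR called 0 of these 5, with 1 at an unadjusted p under 0.05 and 1 by DESeq2. The 8 skeletal muscle markers had a median sum of 78.7 CPM in sham, 346.6 CPM in fracture and 52.6 CPM in fracture plus PDX mice, and each group spanned a wide range (23.9 to 589.8, 48.8 to 1138 and 12.5 to 529.1 CPM). Their median log2 fold change was 2.07 for fracture and 0.15 for fracture plus PDX against sham, and -1.91 between the fracture groups. edgeR called 0 of these 8 in each comparison, with 0 at an unadjusted p under 0.05, and DESeq2 called 1 after fracture and 0 in the others. All 5 red blood cell markers were below 0 against sham, with medians of -0.53 and -0.25, and edgeR called 0, with 1 and 0 at an unadjusted p under 0.05 and 0 by DESeq2. Of 10 markers of pericytes and smooth muscle, edgeR called 0 in both, with 1 and 2 at an unadjusted p under 0.05 and 1 and 0 by DESeq2. The part of these lists in the lower *Lama5* was not tested.

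The 8 genes whose deviations between mice were most like those of *Lama5*, among 12379 genes with a mean of at least 5 CPM, were *Scamp2* (r = 0.91), *Nfatc2* (0.865), *Ice2* (0.85), *Ppp1r10* (0.85), *Rufy1* (0.83), *Nop16* (0.82), *Septin9* (0.81) and *Cop1* (0.80). Only *Cop1* of these passed a group comparison, with a log2 fold change of -0.27 for fracture plus PDX against sham (edgeR adjusted p = 0.0323). The nearest member was *Lamb1*, with 1291 genes ahead of it.

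Sex was balanced over the groups and was not used to choose *Lama5*, so it was tested for all 10 members over the 18 libraries. No member passed the test with edgeR or DESeq2, where edgeR called 0.297% of 20527 genes. *Lama5* was at 40.4 to 44.3 CPM in male and 34.4 to 39.1 CPM in female sham mice, and the log2 fold change of females against males over all groups was -0.09 (SE 0.056, edgeR adjusted p = 0.636). *Lamb2* had the largest value, at 0.13 (SE 0.069, edgeR adjusted p = 0.545). The interaction of sex with fracture rests on the contrast that chose *Lama5*, and its value of 0.03 (SE 0.116) is given with no test.

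*Nid2* had the largest interaction of sex with fracture among the members. It was at 47.4 to 57.0 CPM in male sham and 37.3 to 45.5 CPM in male fracture mice, but at 35.4 to 40.9 CPM in female sham and 45.3 to 51.3 CPM in female fracture mice. Sham and fracture mice thus did not overlap within either sex, in opposite directions, a pattern shown by 0.673% of the 20659 genes tested. The interaction was 0.60 (SE 0.127, edgeR adjusted p = 0.424), and edgeR called 0 of 20659 genes (0%) for it, with 1488 at an unadjusted p under 0.05. DESeq2 called 63 genes, among them *Nid2* (DESeq2 adjusted p = 0.0109) and no other member. The interaction of *Lamb1* was 0.46 (SE 0.134, edgeR adjusted p = 0.536), with 172.8 to 215.6 CPM in male and 145.9 to 174.5 CPM in female sham mice against 151.5 to 176.0 and 169.8 to 192.8 CPM after fracture. The interaction of sex with PDX was called for 1 of 20562 genes (0.00486%) and for no member, with *Lama1* at -0.78 (SE 0.363, edgeR adjusted p = 0.998).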

How the data were processed

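Total RNA of L3–L5 DRG (RNA integrity above 8) gave poly(A) libraries, made with a stranded kit (TruSeq) and sequenced from both ends. The authors deposited 1 table with raw read counts and FPKM for 36737 genes in each of 18 mice, with replicates not pooled. The submitters' processing notes name mm10, cutadapt 1.10, FastQC, HISAT2 and StringTie without their roles, and the counting program, its strand setting and the test behind the authors' comparisons were not given in the sources used here. The plots of the study marked genes past a cut-off on fold and p-value, which was not used here. FPKM, as the authors deposited it, was used for levels between genes and for shares.

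Low counts were filtered with filterByExpr of edgeR (a count of 10, a total of 15), and the remaining genes were fitted by quasi-likelihood (edgeR 4.0.16, R 4.3.3, TMM factors 0.9863 to 1.0241) with group and sex as terms and only the groups compared. The sex comparison used all 18 libraries with group as a term. Interactions added a product of sex and group. P-values were adjusted by Benjamini-Hochberg over all genes tested, with a threshold of 0.05. CPM were TMM-scaled, and log2 CPM used a prior count of 2. Each library came from a separate mouse. The fit was tested on simulated data for fracture against sham (20659 genes). It recovered 63 of 100 genes changed by 0.5 and 90 of 100 changed by 1 on the log2 scale and called 10 unchanged genes. The changed genes were drawn from those above 1 CPM, and genes varied independently with no sex effect. Variation shared between genes through tissue make-up was not simulated. DESeq2 1.42.0, limma 3.58.1 (on log2(FPKM + 0.1)), other scalings, filters and designs and the removal of each library were alternatives.

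All 10 members are named. Of the other lists, genes called in a group comparison are named, up to 5 a list, and marker genes where a value touches a member. *Col4a1*, *Drp2*, *Fbln2*, *Lama3*, *Lamb3* and the endothelial markers that were not called were named after their values were seen. Some genes of these lists are not reported here. The members and lists were chosen with earlier results of these data known.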

Additional observations from a re-analysis of the deposited data

Results flagged for a closer look

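*Lamb2* in the fracture plus PDX group had 1 mouse far from the others. Female mouse 3 of that group was at 97.1 CPM, whereas the other 5 lay between 66.45 and 77.15 CPM, and the gap made up 0.652 of the range of the group, above the critical value of Dixon's test for 6 samples. It was the 1 value of this kind among 30 groups of 6 values examined (10 genes in 3 groups), where chance gives about 1 in 20. The same mouse had the highest fibroblast marker sum of its group, 2239 CPM against a group median of 1713 CPM. It was also highest of its group in the marker sums of skeletal muscle (529.1 CPM against a median of 52.6), perineurium (178.3 against 156.4), pericytes and smooth muscle (313.5 against 272.8) and macrophages (104.9 against 91.7), and lowest in that of neurons (10772 against 11531). The part of these transcripts in its *Lamb2* level was not tested.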

How the results depend on the processing

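Numbers below are genes called over all genes tested or members called among the 9 other than *Lama5*, then log2 fold changes. For fracture against sham (603 genes, 1 member), DESeq2 gave 1476 and 3, the replicate block 118 and 0, and the trophoblast covariate 1 and 0, with *Lama5* at -0.339. For fracture plus PDX against sham (925 genes, 2 members), DESeq2 gave 1580 and 5, the replicate block 486 genes, and the trophoblast covariate 0 and 0, with *Lama5* at -0.392. There, 1 member was called with DESeq2 size factors in edgeR, with no filter and with limma on FPKM. DESeq2 called 21 genes between the fracture groups, 324 for sex (31 by edgeR with no group covariate, 61 with it) and 63 and 9 for the interactions of sex with fracture and with PDX, where edgeR called 0 and 1. The causes were not tested.

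The labels name no pairing of same-numbered mice, and r of their deviations was low (-0.04 to 0.062, -0.076 to 0.087 and -0.084 to 0.149 in the 3 group comparisons). However, 8, 3 and 8 of 12 libraries were nearest to their own number among the 3 mice of that sex, so pairing was not settled. The replicate block is given here only. Under it *Lama1* after fracture was at -1.011 (edgeR adjusted p = 0.0708).

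Leaving out each library gave 213 to 710 genes for fracture against sham (lowest without female fracture mouse 2), 498 to 1008 for fracture plus PDX against sham (lowest without its female mouse 1), 0 to 1 between the fracture groups and 25 to 79 for sex (lowest without female fracture mouse 3). Members called were 1 to 2 and 1 to 4 against sham, the highest without female sham mouse 1 in both. *Lama1* passed in all 24 of these fits. *Lama5* between the fracture groups was at -0.082 to 0.006.

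Direction turned for small values. With the trophoblast covariate, *Lamb1* was at 0.008 and *Nid2* at 0.144 after fracture, and *Lama1* at 0.069, *Lamb1* at 0.02 and *Nid1* at 0.011 between the fracture groups. With the Schwann cell covariate, *Lamb1* was at 0.007 and *Nid2* at 0.044 after fracture, and *Lamb1* at 0.003 with fracture plus PDX and 0.002 between the fracture groups. *Lamb1* was at 0.001 there with the replicate block. For sex, *Lama1* was at 0.008 with no group covariate and *Hspg2* at 0.001 with limma on FPKM. Leaving out 1 library turned *Nid2* against sham (-0.076 to 0.059 for fracture, -0.1 to 0.019 for fracture plus PDX). Between the fracture groups it turned *Lama1* (-0.129 to 0.123), *Lamb1* (-0.031 to 0.031), *Lamb2* (-0.081 to 0.021), *Nid1* (-0.048 to 0.034) and *Hspg2* (-0.053 to 0.016), and for sex *Lama1* (-0.116 to 0.045), *Lama2* (-0.006 to 0.074), *Nid1* (-0.056 to 0.022) and *Hspg2* (-0.044 to 0.026). Of 293 tested member values under alternatives that left out no library, 265 kept direction and side of the threshold. *Lama1* had the lowest counts of the members, 122 to 494 per library.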
